A study of Mus musculus with 49 samples.

Results

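Bone marrow-derived macrophages labelled as Elf4 knockouts (KO) were compared after 16 h of lipopolysaccharide (LPS) with untreated cells of the same genotype. The comparison rests on 6 of the 49 samples of the series, the 3 RNA libraries labelled KO at 16 hours and the 3 labelled KO at 0 hours, chosen by those labels. All the macrophages came from C57BL/6 mice and were grown for 7 days with M-CSF, the growth factor that turns bone marrow precursors into macrophages. LPS was given at 100 ng/ml, and the 0 h cells received none. The 3 KO libraries at 4 h of LPS, and the 3 WT libraries at each of 0 and 16 h, made from cells of the same strain and culture, were used to place the 16 h values. The labels write the genotype as Elf4 KO, and the design text as Elf4-/-. How the KO allele was made and the age and sex of the mice are not given in the sources used here. The table's header gives each library a mouse number of its own. The numbers run in separate ranges at 0, 4 and 16 h, and nothing says whether these were batches. Whether untreated and LPS-treated cells spent equal time in culture is not stated, so LPS and time in culture cannot be told apart.

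LPS is an outer membrane component of Gram-negative bacteria that macrophages sense through TLR4 with CD14 and MD-2. The adaptor MyD88 carries the signal to NF-kB and the inflammatory cytokine genes, and the adaptor TRIF carries it to IRF3 and interferon beta, which acts back on the cells to switch on interferon-stimulated genes. Many cytokine transcripts peak within hours and then decline under induced inhibitors, while metabolic, iron-handling and acute-phase genes continue to climb, and dividing macrophages leave the cell cycle. ELF4 is a DNA-binding protein of the ETS family, and the title of the series names it as a regulator of inflammation.

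Expression was taken from the deposited CPM values (reads of a gene scaled by library total), and values of 3 libraries are given in the order of replicates 1, 2 and 3. The 6 libraries held 13.1 to 16.8 M reads. The KO label was checked on Elf4 itself. It stood at 21.4, 19.1 and 25.5 CPM in untreated KO cells and 32.6, 27.7 and 28.4 CPM at 16 h, against 96.4, 108 and 112 and 129, 134 and 131 CPM in WT, so transcript remained in the KO cells at a lower level than in every WT library. Within KO cells it was 0.42 ± 0.11 (SE) log2 higher at 16 h (adjusted p = 0.00287). The macrophage label matched its markers, with all 10 listed markers measured and their summed level at 21800 to 26120 CPM untreated and 25830 to 31700 CPM at 16 h. Markers of stromal cells, summed, reached 668.3 to 2050 CPM untreated and 1042 to 3306 CPM at 16 h, with KO replicate 2 the highest at each time. In bulk RNA, fewer cells of a type and less RNA per cell cannot be told apart.

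A gene was called when limma's adjusted p was under 0.05 in the same direction on log2(CPM + 1) with the deposited CPM and again after the libraries were rescaled by median ratio, a scaling that centres the typical gene. Of 12058 genes tested, 2148 rose (17.8%) and 3762 fell (31.2%) between 0 and 16 h in KO macrophages. Counts of list members that rose or fell are to be read beside these shares. The double requirement mattered, since the deposited CPM alone gave 2149 up and 6044 down around a median difference of -0.30, and rescaled values alone gave 3598 up and 3762 down around a median of -0.01. Differences and adjusted p-values below are those of the deposited CPM, so a gene at the median of all genes stands at -0.30. Among called genes, a log2 difference of at least 1 was reached by 852 up and 2029 down, and one of at least 5 by 29 up and 4 down.

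The 2 largest rises were those of Lcn2 and Saa3, both acute-phase genes. Lcn2, whose protein lipocalin-2 withholds iron from bacteria by binding their siderophores, stood at 0.721, 2.31 and 5.43 CPM untreated and 2346, 2536 and 1932 CPM at 16 h, a difference of 9.41 ± 0.29 log2 (adjusted p = 2.05e-14). Saa3, which encodes the acute-phase protein serum amyloid A3, climbed from 34.5, 37.1 and 88.2 to 20292, 23261 and 25092 CPM (8.85 ± 0.27). Only the ferritin heavy chain gene Fth1 was more abundant in the KO libraries at 16 h. The haptoglobin gene Hp moved from 1.77, 4.03 and 1.95 to 340.0, 569.9 and 359 CPM (6.90 ± 0.32), and the complement factor B gene Cfb from 25.5, 13.2 and 67.7 to 1692, 1702 and 1716 CPM (5.85 ± 0.38). No overlap between treated and untreated libraries was a condition for a place among the 15 widest rises or falls. These 4 genes are among those rises, and the same condition held for others of the 15 named below. Called members of the gene lists were named for the largest differences, a choice that also favours separate groups. Remarks below on groups that do not overlap are therefore descriptions of the genes picked. Untreated replicate 3 was the highest of its group for Lcn2, Saa3 and Cfb. S100a8, an alarmin of myeloid cells, was at 2.1, 9.22 and 2.44 CPM untreated and 73.1, 68.8 and 98.4 CPM at 16 h (4.07 ± 0.38). S100a9, its usual dimer partner, was looked at after its values were seen and did not pass, with 1.7, 9.29 and 3.2 CPM against 0.994, 7.18 and 2.38 CPM (adjusted p = 0.573). Trem1, an amplifying receptor of myeloid cells, stood at 18.8, 14 and 5.5 CPM untreated and 20.5, 21.8 and 17.9 CPM at 16 h (0.75 ± 0.28, adjusted p = 0.0226), and its groups overlapped. Its call was lost without KO 0 h replicate 3 (0.29 log2), without KO 16 h replicate 1 (0.74) and without KO 16 h replicate 2 (0.70). Of the 18 alarmin and acute-phase genes tested, 12 were called higher and 1 lower, and the list's median was 1.97 against -0.30 over all genes. The gene that fell was Plau, the urokinase-type plasminogen activator, from 355, 153 and 170.1 to 16.5, 17.1 and 10.8 CPM. Summed neutrophil markers, whose cells also make Lcn2, Hp and S100a8, were at 34.21 to 72.05 CPM untreated and 200.9 to 228.2 CPM at 16 h. Of 5 such markers tested, Csf3r and Mmp8 rose, Mpo fell (0.59, 6.66 and 1.25 to 0.0001, 0.524 and 0.0597 CPM), and Camp, Elane, Ltf and Prtn3 were under the filter on low values. The part of neutrophils in these values was not tested.

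**Figure D1:**
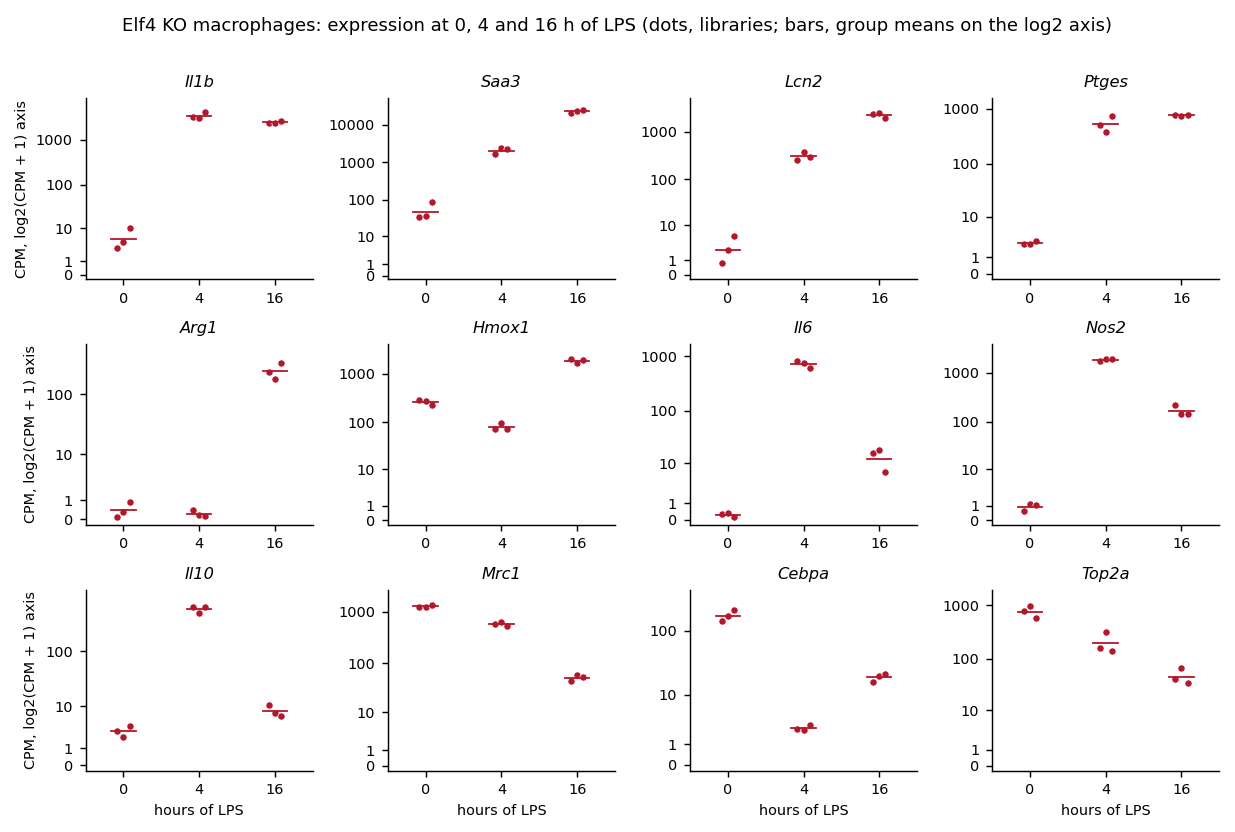
Expression of 12 genes in Elf4 KO macrophages at 0, 4 and 16 h of LPS, with CPM on a log2(CPM + 1) axis, 1 dot per library and a bar at the mean of the 3 on that axis. Il1b, Saa3, Lcn2 and Ptges are high at 16 h, Arg1 appears only after 4 h, Il6, Nos2 and Il10 have fallen back by 16 h, and Mrc1, Cebpa and Top2a lie under their untreated level.

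Inflammatory cytokine genes were still raised at 16 h. Il1b, which encodes the pyrogenic cytokine interleukin-1 beta, stood at 3.01, 4.42 and 9.82 CPM untreated and 2347, 2383 and 2598 CPM at 16 h, a difference of 8.63 ± 0.24 log2 (adjusted p = 6.24e-15). Its relative Il1a went from 1.18, 1.67 and 1.39 to 222, 148 and 136 CPM (6.11 ± 0.18). The tumour necrosis factor gene Tnf was at 12.3, 8.2 and 5.85 CPM and then 123, 136 and 81.1 CPM (3.57 ± 0.22). Treated and untreated libraries were well apart for all 3 genes. Il6, a driver of the acute-phase response, moved from 0.262, 0.32 and 0.139 to 15.9, 17.9 and 6.5 CPM (3.43 ± 0.23). Il12b, the shared p40 subunit of IL-12 and IL-23, moved from 0.262, 0.448 and 0.348 to 32.3, 19.2 and 10.8 CPM (3.89 ± 0.27). Treated replicate 3 was the lowest of its group for Tnf, Il6 and Il12b. G-CSF, which drives granulocyte production and is encoded by Csf3, rose from 0.0656, 0.128 and 0.139 to 21.3, 33.5 and 11 CPM. In all, 15 of 18 tested cytokine genes rose and none fell, with a median of 1.55. The list names 23 genes, of which 22 were in the table and 4 of those were under the filter on low values, at least 1 CPM in 3 libraries. Those not called included Csf1, the gene of M-CSF itself (66.8, 106 and 40.9 against 42.8, 53.4 and 24.3 CPM), and Il15, a growth factor of NK and memory T cells (10.8, 10.1 and 15.9 against 15.1, 11.7 and 16.5 CPM), whose groups both overlapped.

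The genes that restrain inflammation stood high alongside. Il1rn, whose product blocks the interleukin-1 receptor, went from 30.6, 30.7 and 37.5 CPM untreated to 2419.7, 1587 and 1535 CPM at 16 h, a difference of 5.74 ± 0.15 log2 (adjusted p = 3.89e-15). Socs3, an inhibitor of JAK kinases downstream of IL-6 family receptors, went from 5.83, 6.21 and 9.19 to 754, 691 and 752 CPM (6.53 ± 0.12). Both pairs of groups were separate, with treated replicate 1 the highest for each. Cd274, which encodes the T cell checkpoint ligand PD-L1, rose from 6.82, 8.58 and 19.6 to 487, 405 and 426 CPM (5.25 ± 0.23), and Dusp2, a phosphatase that acts on MAP kinases, by 4.10 ± 0.13. Il10, the main anti-inflammatory cytokine of macrophages, was at 2.95, 2.18 and 3.97 CPM and then 10.3, 7.48 and 6.38 CPM (1.17 ± 0.16), a low level at both times. In the list of restraining genes 21 of 29 tested members rose and 2 fell; the median was 2.01. One of the 2 was Tsc22d3, the glucocorticoid-induced leucine zipper, at 62.4, 77.2 and 98.6 CPM untreated and 16.9, 13.8 and 20.4 CPM at 16 h. Tgfb1, at 321, 296 and 301 against 236, 262 and 237 CPM, was lower with the deposited CPM (-0.32 ± 0.07, adjusted p = 0.000343) but at 0.00 after rescaling, so it was not called.

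Chemokines for neutrophils and for monocytes and T cells rose. Cxcl3 and Cxcl2, which attract neutrophils through CXCR2, stood at 0.459, 0.192 and 0.348 and 2.23, 1.54 and 0.766 CPM untreated. At 16 h they stood at 39.8, 27.8 and 55.8 and 71.7, 73.6 and 70.4 CPM, higher by 4.93 ± 0.18 and 4.90 ± 0.17 log2. Cxcl1 went from 0.131, 0.448 and 0.487 to 14, 21.9 and 13.5 CPM (3.67 ± 0.24). No library of 1 group reached the range of the other, and 4 of 5 genes of this kind rose. The exception was Ppbp, a platelet chemokine, at 2.16, 5 and 2.58 against 1.22, 0.898 and 3.04 CPM. Among 17 other chemokines tested, 13 rose and 2 fell. Ccl5, an attractant of T cells and monocytes, rose from 96.4, 53.8 and 185 to 3145, 2636 and 3846 CPM (4.99 ± 0.30) and was by far the most abundant of those named here. The interferon-induced T cell attractants Cxcl9 and Cxcl10 reached 90.9, 75.1 and 48.6 and 173, 135 and 75.8 CPM (5.43 ± 0.24 and 4.20 ± 0.20). Ccl6 fell by 1.64 log2. Cxcl12, a chemokine made by stromal cells, fell by 1.48 log2. Cxcl12 stood at 18.9, 35.4 and 10.1 CPM untreated and 6.73, 10.6 and 3.1 CPM at 16 h, highest at both times in replicate 2, the replicate with the most stromal transcripts, and its groups overlapped. Its call was lost without KO 0 h replicate 2 (-1.05) and without KO 16 h replicate 3 (-1.08).

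Receptors for chemoattractants split. The formyl peptide receptor genes Fpr1 and Fpr2, which guide cells to bacterial peptides, stood at 2.1, 6.28 and 3.13 and 3.41, 4.93 and 3.55 CPM untreated and at 557, 627 and 545 and 258, 296 and 289 CPM at 16 h (6.99 ± 0.28 and 5.84 ± 0.13 log2). Cxcr4, the receptor of CXCL12, fell from 105, 131 and 249.7 to 9.87, 8.98 and 24.4 CPM (-3.44 ± 0.31), and Ccr2, the receptor of CCL2, from 19.5, 33.7 and 42 to 5.12, 6.36 and 8.76 CPM (-2.04 ± 0.31). The groups of these 4 genes, picked for large called differences, did not overlap. Of 16 receptors tested 8 rose and 7 fell, and the anaphylatoxin receptor gene C3ar1 was not called (892, 727 and 1097 against 1033, 828 and 861 CPM).

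The NF-kB motif appears in the promoters of several of these genes. The motif searched was GGGANNTTC on both strands in the 250 bases before the start, and overlapping matches on the 2 strands are joined. Shown, because they are the called cytokine or neutrophil chemokine genes with the motif and the largest differences, are stretches of Il6 (chr5:30013025-30013113, plus strand), Cxcl3 (chr5:90785985-90786083, plus strand) and Cxcl2 (chr5:90903759-90903857, plus strand), from RefSeq on GRCm38.p6, with matches in capitals.
Il6: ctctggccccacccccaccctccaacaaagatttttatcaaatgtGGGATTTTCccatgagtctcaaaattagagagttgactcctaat
Cxcl3: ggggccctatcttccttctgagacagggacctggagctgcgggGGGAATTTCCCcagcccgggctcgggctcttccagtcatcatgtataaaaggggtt
Cxcl2: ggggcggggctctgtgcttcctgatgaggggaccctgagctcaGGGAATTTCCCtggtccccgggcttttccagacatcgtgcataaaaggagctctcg
Matches were found before the start of 3 of 4 neutrophil chemoattractant genes and 2 of 11 cytokine genes with 1 listed start, against 3.3% of all 7669 tested genes with 1 listed start. The share was 4.39% among genes that rose and 3.18% among genes that fell. A match is a description of letters and shows no binding.

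**Figure D2:**
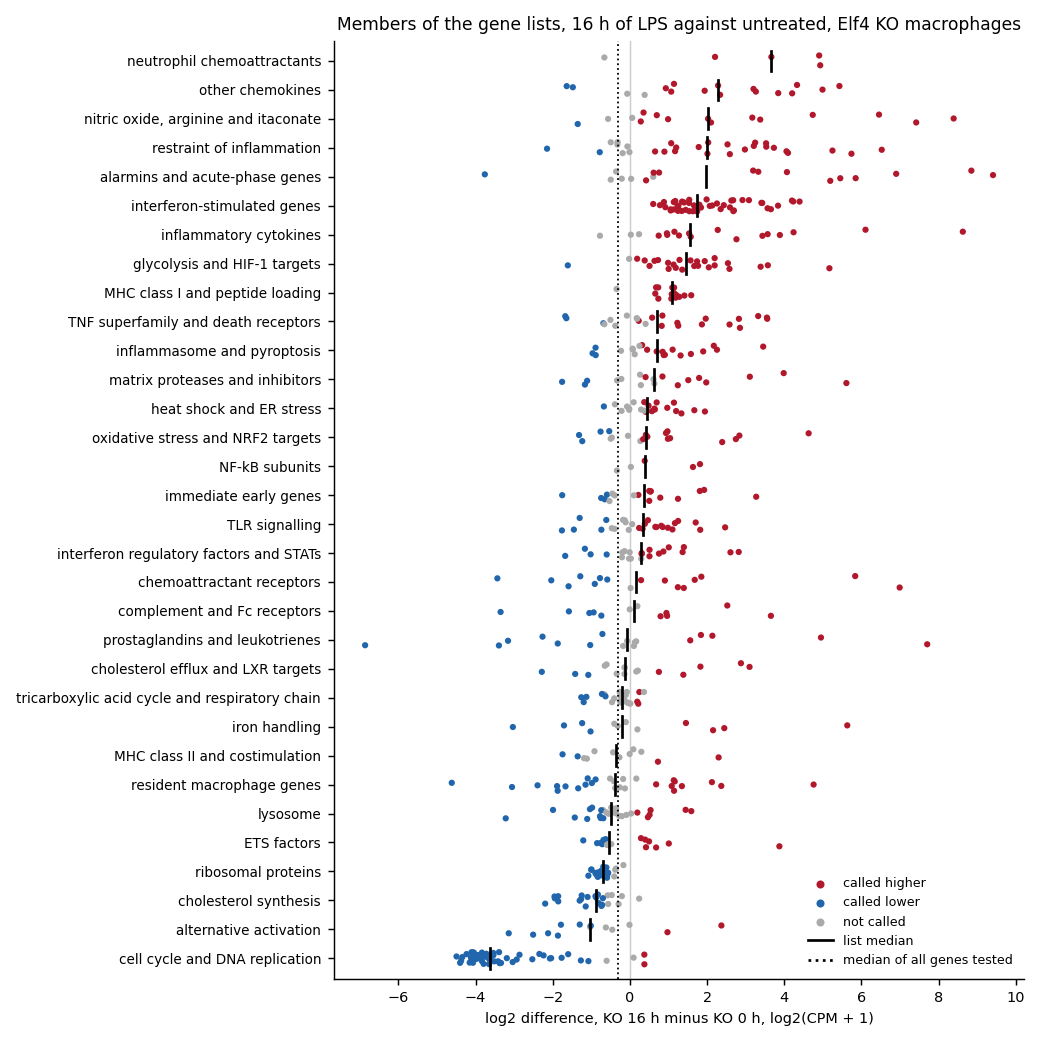
Log2 difference between 16 h and 0 h of LPS in KO macrophages for each tested member of 32 gene lists, 1 dot per gene, red where called higher, blue where called lower and grey where not called. Black bars mark list medians and the dotted line the median of all 12058 genes, -0.30. Chemokine, interferon-stimulated and cytokine lists lie on the right, and the cell cycle list on the left.

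Every tested interferon-stimulated gene was higher at 16 h than untreated. All 49 genes tested rose, with a median of 1.74 (2.05 after rescaling), while the median of all genes was -0.30. Ifit1bl1, of the IFIT family of antiviral RNA-binding proteins, stood at 1.44, 1.6 and 4.18 CPM untreated and 130.2, 43.8 and 51.2 CPM at 16 h (4.40 ± 0.31 log2, adjusted p = 9.36e-10). Ifi205, an interferon-inducible gene of the DNA-sensor family, went from 12.1, 6.66 and 15.7 to 274, 178 and 225 CPM (4.23 ± 0.23). Gbp2, a guanylate-binding protein that coats intracellular pathogens, went from 22.7, 23.1 and 52.5 to 564, 382 and 411 CPM (3.84 ± 0.23). Groups were separate for all 3, and replicate 1 was the highest of the treated libraries for each. Rsad2, the gene of the antiviral enzyme viperin, was at 48.7, 32 and 98.2 CPM and then 508, 314 and 273 CPM (2.69 ± 0.29). The exonuclease gene Isg20 rose by 4.20 ± 0.23. Irf7, the master regulator of the later interferon response, was at 229, 138 and 441 CPM untreated and 1607, 1259.8 and 1566 CPM at 16 h (2.60 ± 0.29). Untreated replicate 3 was the highest of its group for Rsad2 and Irf7, and over the whole list it summed to 8112 CPM against 5864 and 4537 CPM in replicates 1 and 2. Leaving out any 1 of the compared libraries kept 49 genes called. Ifnb1, interferon beta itself, was near 0 at both times, with 0.0001, 0.0001 and 0.0697 CPM untreated, where 0.0001 is the table's lowest entry, and 0.0766, 0.15 and 0.179 CPM at 16 h (adjusted p = 0.594). A difference at that level was not detectable at this depth. Members of the IFIT, GBP and IFI200 families have stretches of like sequence, and how the authors' counting shared such reads is not given in the sources used here, so their separate values are uncertain to that extent.

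Of 22 interferon regulatory factors, STATs and their receptors and kinases, 11 rose and 4 fell. Jak2, a kinase of cytokine receptors, rose from 53.5, 54.7 and 56.7 to 377, 418 and 387 CPM (2.82 ± 0.08), and Stat2, a subunit of the interferon-activated transcription complex, rose by 1.40 ± 0.19. Ifngr1, the ligand-binding chain of the interferon gamma receptor, fell from 193, 204 and 266 to 93.9, 98.7 and 133 CPM (-1.02 ± 0.12). Antigen presentation on MHC class I moved up as a list, with 14 of 15 genes higher and a median of 1.10. Psme2, a subunit of the proteasome activator, was at 94.4, 83.9 and 83.7 CPM and then 270.1, 252 and 271 CPM (1.59 ± 0.07), and the immunoproteasome gene Psmb10 rose by 1.41 ± 0.09. Of 12 MHC class II and costimulation genes 2 rose, 2 fell and 8 were not called. Over all genes tested 17.8% rose and 31.2% fell. The costimulatory genes Cd40 and Cd86 rose from 10.6, 7.11 and 8.35 and 14.2, 15.6 and 18.9 CPM to 55.9, 50.1 and 35 and 31.7, 23.2 and 27.7 CPM. Icosl, the ICOS ligand, fell from 31.3, 28.3 and 26.1 to 11.2, 12.3 and 8.4 CPM. Cd74, the class II invariant chain, stood at 491, 264 and 1008 CPM untreated and 221, 158 and 549.9 CPM at 16 h, highest in replicate 3 at both times, and was not called (adjusted p = 0.0775).

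The interferon-response motif searched was GAAANNGAA on both strands. It lay before the start of 19 of 32 interferon-stimulated genes with 1 listed start (59.4%), against 6.62% of all tested genes, 10.1% of genes that rose and 4.97% of genes that fell. The 2 called members with the motif and the largest differences were Ifi205 (chr1:174031836-174031934, minus strand) and Gbp2 (chr3:142620560-142620658, plus strand), shown with the match in capitals, which for Gbp2 is on the other strand.
Ifi205: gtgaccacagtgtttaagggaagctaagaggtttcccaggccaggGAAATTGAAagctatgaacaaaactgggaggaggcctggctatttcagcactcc
Gbp2: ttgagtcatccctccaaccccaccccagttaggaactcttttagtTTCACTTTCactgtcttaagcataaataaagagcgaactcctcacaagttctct

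Sensors and signalling genes upstream rose more often than they fell, while over all genes tested 17.8% rose and 31.2% fell. Of 27 TLR pathway genes tested, 15 rose and 5 fell. Tlr4, the LPS receptor, fell from 234, 226 and 259 to 99.3, 92.8 and 97.2 CPM (-1.30 ± 0.07 log2), and Tlr13, a sensor of bacterial ribosomal RNA, from 519, 429.6 and 566 to 209, 161 and 180.1 CPM (-1.45 ± 0.11). Ikbke, a kinase of the interferon branch, rose from 34.6, 32.5 and 49.6 to 228, 202 and 219 CPM (2.47 ± 0.11), and the lipoprotein receptor gene Tlr1 by 1.82 ± 0.10. The 4 pairs of groups were separate. Of the NF-kB subunits, Nfkb2 (1.81 ± 0.08), Relb (1.63 ± 0.11) and Nfkb1 (0.38 ± 0.08) rose, while Rela stood at 88.6, 95.4 and 85.8 against 90.4, 97.7 and 86.3 CPM and Rel at 45.7, 39.9 and 55.7 against 39.9, 42.3 and 29.3 CPM, neither called. Of 21 inflammasome and pyroptosis genes, 13 rose and 3 fell. Mefv, the gene of pyrin, went from 4.91, 12.8 and 8.98 to 79.5, 111 and 117 CPM (3.45 ± 0.25). Casp4, which encodes the sensor of intracellular LPS known as caspase-11, went from 10.4, 9.73 and 20.3 to 68.1, 56.6 and 59.3 CPM (2.17 ± 0.17). P2rx7, the ATP-gated channel that triggers NLRP3, fell from 82, 95.7 and 119 to 50.6, 48.8 and 57.9 CPM. The adaptor gene Pycard, at 56.6, 53.2 and 44.3 against 49.2, 51.9 and 60.6 CPM, was not called. Of 24 genes of the TNF superfamily and death receptors, 14 rose and 3 fell. Tnfrsf1b, TNF receptor 2, moved from 183, 229 and 315 to 2665, 2222 and 2262 CPM (3.32 ± 0.14). Birc3, an inhibitor of apoptosis, rose by 2.82 ± 0.13.

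Enzymes that make nitric oxide, itaconate and prostaglandin E2 rose steeply. Acod1, which makes itaconate from a citric acid cycle intermediate, stood at 4.26, 8.71 and 9.54 CPM untreated and 2902, 3002 and 2329 CPM at 16 h (8.39 ± 0.20 log2, adjusted p = 9.78e-16). Nos2, the inducible nitric oxide synthase, stood at 0.524, 1.15 and 1.04 and then 222, 141 and 141 CPM (6.45 ± 0.15). Arg1, the arginase that competes with NOS2 for arginine, was at 0.0656, 0.32 and 0.905 CPM and then 234, 176 and 322 CPM (7.42 ± 0.22). Each was low in every untreated library. Slc7a2, which imports arginine, rose from 35.8, 32.8 and 42.7 to 1171, 1152 and 761 CPM. Of 15 genes of this list, 12 rose and 1 fell. The polyamine enzyme gene Odc1, at 111, 90.4 and 54.2 against 59, 60.9 and 45.6 CPM, was not called. Ptges, the terminal synthase of prostaglandin E2, went from 2.42, 2.56 and 2.92 to 765, 743 and 760.5 CPM (7.70 ± 0.15), and Ptgs2, the cyclooxygenase COX-2, from 6.88, 10.6 and 3.97 to 298, 281 and 158 CPM (4.95 ± 0.26). Hpgd, which degrades prostaglandins, made the largest fall of any gene named, from 239, 295 and 369.8 to 1.3, 1.35 and 2.09 CPM (-6.86 ± 0.20). Ptgs1, the constitutive COX-1, fell from 90.3, 98.7 and 106 to 8.18, 10.1 and 12.4 CPM (-3.16 ± 0.15). Alox5, which starts leukotriene synthesis, fell by 3.40. In this list 5 of 17 genes rose and 7 fell.

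Glycolytic and hypoxia-response genes rose almost as a whole. Of 26 tested, 24 rose and 1 fell, with a median of 1.46. Pfkfb3, which makes the allosteric activator of glycolysis, stood at 25.9, 25.7 and 37.5 CPM untreated and 1064, 1014 and 1192 CPM at 16 h (5.17 ± 0.13). Slc16a3, the lactate exporter, stood at 45.7, 47 and 33.3 and then 416, 465 and 450.1 CPM (3.39 ± 0.15). The pyruvate kinase gene Pkm, abundant at both times, rose from 2712, 2725 and 2077 to 4928, 4833 and 5177 CPM (1.00 ± 0.11). Groups did not overlap for these genes. The HIF targets Egln3, an oxygen-sensing hydroxylase, and Bnip3, a mitophagy receptor, reached 15.1, 23.3 and 24.4 and 162, 177 and 190.4 CPM (3.57 ± 0.18 and 2.58 ± 0.13). Slc2a3, a glucose transporter, was the member that fell, from 11.6, 9.8 and 8.7 to 2.75, 2.92 and 2.15 CPM. Citric acid cycle and respiratory chain genes stayed closer to their untreated level, with 3 of 27 up and 5 down. Idh2 fell from 98.6, 107 and 80.0 to 34.3, 45.3 and 37.7 CPM (-1.26 ± 0.13) and Mdh1 from 189, 199 and 194 to 79.4, 86.4 and 85.7 CPM (-1.20 ± 0.08). The count of 3 up went to 10 with rescaled values alone and to 0 without KO 0 h replicate 3 or without KO 16 h replicate 3, and to 1 without KO 0 h replicate 1.

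Iron and redox genes changed in opposite directions within their lists. Fth1, the ferritin heavy chain that stores iron, was the most abundant transcript at 16 h, at 29807, 27683 and 32751 CPM against 6821, 6442 and 6976 CPM untreated (2.15 ± 0.11). Ftl1, the ferritin light chain, was at 7322, 7855 and 7293 CPM untreated and 6037, 5322 and 6738 CPM at 16 h and was not called. Slc40a1, the iron exporter ferroportin, fell from 75.5, 89 and 90.4 to 12.6, 6.29 and 10.5 CPM (-3.04 ± 0.22), and Tfrc, the transferrin receptor, from 123, 113 and 73.1 to 46, 63.8 and 39.9 CPM (-1.02 ± 0.20). The copper-dependent ferroxidase gene Cp rose from 5.24, 6.4 and 10.1 to 394, 454 and 347 CPM (5.63 ± 0.19). Of 12 iron genes, 4 were called higher and 4 lower; the list's median was -0.21, and 0.11 after rescaling. Hmox1, which breaks down heme, was at 286, 275 and 228 CPM and then 2027, 1684 and 1935 CPM (2.84 ± 0.13). Sod2, the mitochondrial superoxide dismutase, was at 61.5, 59.5 and 57.4 and then 1482, 1536 and 1472 CPM (4.63 ± 0.07). Gclc, the catalytic subunit of glutathione synthesis, fell from 57.5, 65.8 and 39.7 to 18.9, 21.6 and 21.8 CPM, and Gpx1, a glutathione peroxidase, from 642, 642 and 731 to 259, 253 and 348 CPM. Of 19 oxidative stress genes 11 rose and 4 fell. Of 23 heat shock and ER stress genes 14 rose and 1 fell. Those that rose included Ddit3 (1.20 ± 0.22), the stress factor CHOP, and Hspa1a (1.94 ± 0.24), whose reads are hard to tell from those of its near-identical copy Hspa1b.

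Cell cycle genes had the lowest median of the 32 lists. Of 50 tested, 46 fell and 2 rose, with a median of -3.64 log2. Top2a, the DNA topoisomerase of dividing cells, stood at 792, 965 and 576 CPM untreated and 40.8, 65 and 34.4 CPM at 16 h (-4.05 ± 0.26, adjusted p = 3.15e-10). Ccna2, the cyclin of S and G2 phases, stood at 269.9, 323 and 185 and then 8.64, 14.9 and 10.2 CPM (-4.40 ± 0.26). Kif11, a motor of the mitotic spindle, stood at 204, 236 and 153 and then 6.65, 11.4 and 5.9 CPM (-4.50 ± 0.26). Replicate 2 was the highest of the 3 at both times for all 3 genes, and the groups were far apart. The 2 members that rose were Cdkn1a, the cell cycle inhibitor p21 (293, 267 and 230.1 to 401, 330.1 and 296 CPM), and Ccnd3, a G1 cyclin (93.2, 85.7 and 61.6 to 109.7, 94.9 and 104 CPM). The call on Ccnd3 was lost without KO 0 h replicate 3 (0.20 log2). Cdkn1b and Ccnd2 were not called, the latter at 45.4, 29.4 and 25.9 against 37.6, 39 and 28.8 CPM. The E2F motif, searched as TTTCGCGC and TTTGGCGC, lay before the start of 3 of 34 of these genes with 1 listed start, against 1.45% of all tested genes and 2.05% of genes that fell. The 2 with the largest falls were Cdk1 (chr10:69352991-69353088, minus strand), the kinase of mitosis, and Mcm6 (chr1:128359706-128359797, minus strand), a subunit of the replicative helicase, shown with the match in capitals.
Cdk1: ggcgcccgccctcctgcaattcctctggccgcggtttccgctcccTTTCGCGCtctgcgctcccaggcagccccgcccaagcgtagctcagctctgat
Mcm6: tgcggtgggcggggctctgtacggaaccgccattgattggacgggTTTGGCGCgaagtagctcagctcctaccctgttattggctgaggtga
Cdk1 differed by -3.67 and Mcm6 by -3.54 log2.

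Cholesterol synthesis genes fell together, 18 of 24 with none up and a median of -0.87. Stard4, which carries sterols between membranes, went from 71.6, 74.8 and 60.4 to 15.8, 19.8 and 19.1 CPM (-1.86 ± 0.12), and Idi1, an isomerase of the isoprenoid steps, from 73.5, 72.5 and 61.5 to 16.8, 15.1 and 19.4 CPM (-1.96 ± 0.12). Both pairs of groups were separate. The sterol motif TCACNCCAC was found before 1 of 15 of these genes with 1 listed start, the synthase gene Hmgcs1 (chr13:119690169-119690267, plus strand), which fell by 0.88 log2, and before 0.887% of all tested genes.
Hmgcs1: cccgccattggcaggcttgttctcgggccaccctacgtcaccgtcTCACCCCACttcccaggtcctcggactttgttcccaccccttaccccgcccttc
Cholesterol export genes were mixed, with 5 of 16 up, 3 down and a median of -0.14 that was 0.18 after rescaling. Abca1, the exporter that loads lipoproteins, rose from 117, 149 and 277 to 604, 658 and 549.6 CPM (1.83 ± 0.24), and Nr1h3, the sterol sensor LXR alpha, from 21.2, 25.6 and 27.9 to 179.6, 170.0 and 217 CPM (2.88 ± 0.14). Lpl, lipoprotein lipase, fell from 1565, 1207 and 2085 to 365, 342 and 270.1 CPM (-2.29 ± 0.17).

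Genes of resting macrophages went both ways. Mrc1, the mannose receptor CD206, fell from 1244, 1272 and 1333 to 43.6, 58.1 and 53 CPM (-4.62 ± 0.11, adjusted p = 8.96e-16). Stab1, a scavenger receptor, fell from 3163, 3012 and 3071 to 791, 920.3 and 787 CPM (-1.89 ± 0.11), and Trem2, a lipid-sensing receptor, from 493, 451 and 593 to 85.1, 70.3 and 147 CPM (-2.40 ± 0.18). Marco, another scavenger receptor, rose from 5.5, 9.22 and 12 to 181, 454 and 207 CPM (4.76 ± 0.42), with replicate 2 above the others at 16 h. Of the C/EBP factors, Cebpa fell from 141, 166 and 203 to 16.3, 20.2 and 21.7 CPM and Cebpb rose from 77.2, 91.3 and 58.8 to 416, 382 and 369 CPM. Csf1r, the receptor of M-CSF, was at 3146, 2986 and 3461 against 2258, 2464 and 2629.6 CPM and was not called, since its difference of -0.38 was -0.06 after rescaling. In all 9 of 27 genes rose and 11 fell. Of 13 alternative activation genes 7 fell and 2 rose; Pparg, a lipid-sensing nuclear receptor, fell by 3.14 ± 0.17. The growth factor gene Igf1 fell by 1.87 ± 0.12, and Il4ra, the IL-4 receptor, rose by 2.37 ± 0.16. Of 28 lysosome genes 10 fell and 6 rose, near the shares over all genes tested (31.2% and 17.8%). The cathepsin gene Ctsz rose by 1.59 ± 0.08. The acid lipase gene Lipa fell by 2.00 ± 0.08. Ctsb, the most abundant cathepsin at 16 h, stood at 10613, 10061 and 13316 against 7051, 6148 and 7659.5 CPM and was not called.

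Of 12 complement and Fc receptor genes 5 rose and 5 fell, and the Fc receptor gene Fcgr4 rose by 3.65 ± 0.28. Ribosomal protein genes fell in 22 of 26 cases with none up and a median of -0.71, and Rpl3 stood at 879.8, 907 and 839 CPM untreated and 382, 436 and 425 CPM at 16 h (-1.08 ± 0.08). Of 18 matrix protease genes 9 rose and 3 fell. The collagenase gene Mmp13 went from 8.78, 12 and 16.1 to 731, 738 and 468 CPM (5.61 ± 0.20) and the membrane-bound Mmp14 from 58.7, 112 and 67.3 to 1137, 1339.7 and 1195 CPM (3.98 ± 0.16). Stromal cells make matrix enzymes as well. Of their 10 tested markers 2 rose, and Col3a1 went from 38.7, 118 and 32.2 to 125, 337 and 94.6 CPM with overlapping groups. The part of stromal cells in these values was not tested, and the counts of called genes without KO replicate 2 at every time were 1991 up and 3443 down. Of 18 immediate early genes 10 rose and 4 fell, among them Junb at 1.92, Ier3 at 3.27 and Jun at -0.75.

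Several of the widest gaps lay outside those groups. Cd38, an ectoenzyme that consumes NAD, stood at 1.31, 1.92 and 5.15 CPM untreated and 443, 638 and 476 CPM at 16 h (7.21 ± 0.28 log2), and Tarm1, an activating receptor of myeloid cells, at 0.0001, 0.192 and 0.209 and then 80.5, 66.3 and 67.8 CPM (6.00 ± 0.12). St6gal1, a sialyltransferase, fell from 83, 97.9 and 136 to 1.07, 2.47 and 1.37 CPM (-5.34 ± 0.21). Cd28, known as a costimulatory receptor of T cells, fell from 61.7, 74.5 and 135 to 1.68, 0.748 and 1.73 CPM (-5.21 ± 0.27), while summed T and NK cell markers went from 10.49 to 26.52 CPM untreated to 4.436 to 8.819 CPM at 16 h. Of those markers tested, Cd4 fell and Lck was not called. The part of such cells in the Cd28 values was not tested. Rasgrp3, an activator of Ras proteins, fell from 48.8, 32 and 55.3 to 0.306, 0.0749 and 0.715 CPM (-5.08 ± 0.21). Separate groups were a condition for naming these 5 genes.

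Because Elf4 is an ETS factor, the other members of that family were examined. Of 17 tested, 7 rose and 6 fell, Elf4 itself among the 7. Spic, a PU.1-related factor of iron-recycling macrophages, stood at 0.655, 0.705 and 1.81 CPM untreated and 25.3, 27.5 and 32.2 CPM at 16 h (3.87 ± 0.26 log2). Ets2 went from 138, 118 and 59.5 to 212, 264 and 142 CPM (1.01 ± 0.25), and Spi1, the gene of PU.1, from 335, 309.8 and 319 to 514, 476 and 557 CPM (0.68 ± 0.07). Treated libraries lay above untreated ones for each. Etv3 fell from 103, 95.4 and 122 to 43.2, 45.2 and 48 CPM (-1.21 ± 0.12). Fli1 fell by 0.85, and Gabpa fell by 0.72. The ETS motif CCGGAAGT lay before the start of 4.32% of genes that rose, 5.14% of genes that fell and 6.52% of all tested genes with 1 listed start, and before 0 of 8 ETS family genes.

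The 4 h libraries placed these values in time. Between 4 and 16 h in KO cells 4262 genes rose (35.3%) and 2367 fell (19.6%). The deposited CPM alone gave 6719 up and 2367 down around a median of 0.43, and rescaled values alone 4262 up and 4103 down around 0.03. Of the 2148 genes higher at 16 h than untreated, 903 were higher at 16 h than at 4 h, 624 lower and 621 not called. Of the 3762 lower genes, 991 were lower at 16 h than at 4 h, 995 higher and 1776 not called. Both comparisons use the same 16 h libraries.

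Some genes appeared late. Arg1 was at 0.4, 0.156 and 0.127 CPM at 4 h, within the untreated range, and 7.60 log2 higher at 16 h (adjusted p = 1.15e-14). Siglece, an inhibitory sialic acid receptor, stood at 5.11, 5.06 and 3.83 CPM untreated, 7.2, 9.4 and 6.86 CPM at 4 h and 225, 258 and 219 CPM at 16 h. Slpi, a protease inhibitor of the acute phase, stood at 1.18, 1.99 and 1.81, then 2.8, 3.73 and 2.6, then 77, 113 and 99.2 CPM. These 3 genes share the pattern of little change at 4 h and a wide gap by 16 h. Hmox1 dipped to 71.7, 97.1 and 73.7 CPM at 4 h before its rise, and Marco was at 6.16, 14.5 and 11.6 CPM at 4 h. Sesn1, a stress-induced gene, was at 158, 175 and 237 CPM untreated, 0.72, 0.777 and 1.21 CPM at 4 h and 31.9, 31.5 and 41 CPM at 16 h, so that it had partly returned. By list, 20 of 26 glycolytic genes, 10 of 17 ETS factors and 11 of 23 heat shock and ER stress genes were higher at 16 h than at 4 h. Among all genes tested the share was 35.3%. In the same lists 2, 5 and 1 genes were lower at 16 h, against 19.6% of all genes tested.

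Others were fading. Il6 had reached 839, 763 and 626 CPM at 4 h and was -5.79 log2 at 16 h against 4 h. Il10 had reached 599, 469 and 597 CPM (-5.95), Il27, a cytokine of the IL-12 family, 713, 569.9 and 649 CPM (-6.19) and Cxcl10 7144, 7219 and 6123 CPM (-5.80). Lipg, the endothelial lipase gene, went from 1039, 777 and 1012 CPM at 4 h to 20.0, 6.96 and 4.53 CPM at 16 h. All of these remained above untreated levels at 16 h. Cd83, a surface marker of activated antigen-presenting cells, went below them, at 19.6, 23.4 and 49.8, 249.6, 202 and 268 and 4.51, 2.1 and 2.56 CPM at 0, 4 and 16 h. Il1b stood at 3200.2, 3020.3 and 4175 CPM at 4 h, above every KO library at 16 h. Its difference between 4 and 16 h was not called. By list, 15 of 18 cytokine genes, 21 of 29 restraining genes and 36 of 49 interferon-stimulated genes were lower at 16 h than at 4 h. So were all 5 NF-kB subunits and 30 of 50 cell cycle genes, against 19.6% of all genes tested.

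**Figure D3:**
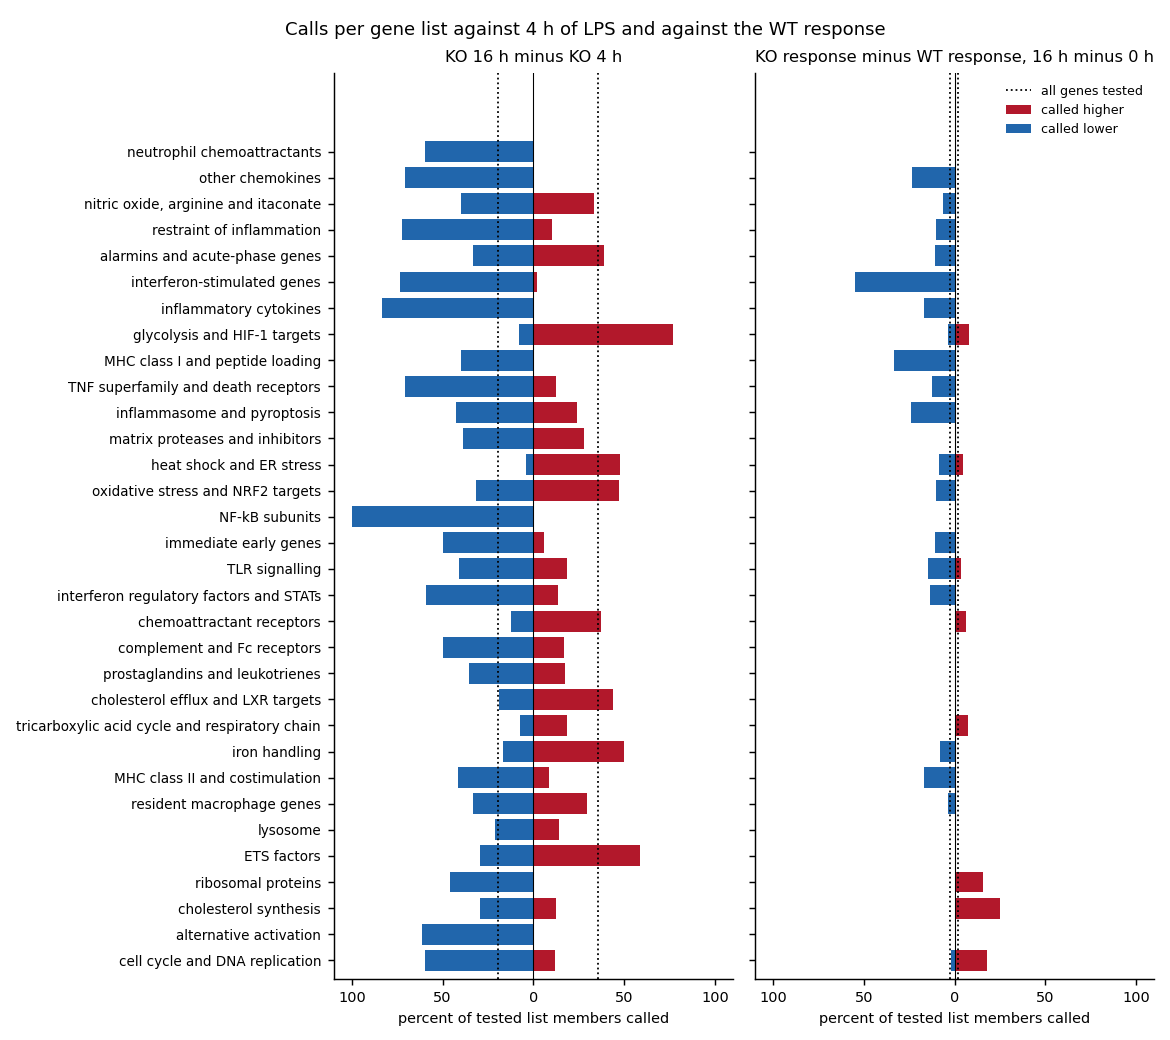
Percent of each list's tested members called higher (red, right) or lower (blue, left) between 4 and 16 h of LPS in KO cells (left panel) and in the KO response minus the WT response, 16 h minus 0 h (right panel). Dotted lines mark the percent over all genes tested, 35.3% and 19.6% on the left and 1.66% and 2.79% on the right. Cytokine and interferon-stimulated lists lie on the lower side in the left panel and glycolysis on the higher, and interferon-stimulated genes reach farthest in the right panel.

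The KO response was then set against that of WT cells by a test of the difference itself, that is, the KO difference between 16 h and 0 h minus the WT difference. In 336 genes (2.79%) the KO response lay under the WT response, and in 200 (1.66%) over it. The deposited CPM alone gave 341 under and 437 over, and rescaled values alone 404 under and 200 over. With no call on the difference, 1588 genes were called up in both genotypes and 3196 were called down in both. In WT cells too, all 49 interferon-stimulated genes tested rose and 46 of 50 cell cycle genes fell. Of the 336, 214 rose in both genotypes, so less in KO, and 77 were called up in WT with no call in KO. Of the 200, 119 fell in both genotypes, so less in KO, and 44 were called down in WT with no call in KO. These counts leaned on single libraries, and a replicate block, described in the closing section, gave 583 under and 577 over. The 200 became 103, 54 and 84 without WT 0 h replicates 1, 2 and 3, and 73, 110 and 72 without WT 16 h replicates 1, 2 and 3. They became 101 without KO 0 h replicate 3, 70 without KO 16 h replicate 2 and 323 without KO 16 h replicate 1. The 336 became 164 and 220 without WT 0 h replicates 2 and 3, 182 and 171 without WT 16 h replicates 1 and 3, and 189 without KO 16 h replicate 2.

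Of the 49 interferon-stimulated genes tested, 27 responded less in KO and 0 more, the most members of any list. The list's count became 13 without WT 0 h replicate 2, 14 and 17 without WT 16 h replicates 1 and 3, 15 without KO 16 h replicate 2 and 42 without KO 0 h replicate 2. Rsad2 stood at 67.9, 40.2 and 56.7 CPM in untreated WT cells and 1784, 1739 and 1883 CPM at 16 h, against 48.7, 32 and 98.2 and 508, 314 and 273 CPM in KO, and the KO response was -2.35 ± 0.40 log2 relative to WT (adjusted p = 0.00477). Ifit1bl1 reached 650.4, 536 and 606 CPM in WT and 130.2, 43.8 and 51.2 CPM in KO (-3.36 ± 0.44). Gbp4, a guanylate-binding protein gene, reached 67.8, 60.8 and 74.9 CPM in WT and 12.8, 5.01 and 8.7 CPM in KO (-3.15 ± 0.33). At 16 h each KO library lay under every WT library for these genes, while at 0 h the genotypes overlapped. They are among the genes named for the widest differences between responses, a choice that favours separate libraries at 16 h. Cxcl11 reached 51.9, 50.1 and 49.3 CPM in WT and 8.72, 4.79 and 1.61 CPM in KO (-3.12 ± 0.41), and Cxcl10 557, 613 and 611 and 173, 135 and 75.8 CPM (-2.03 ± 0.28). KO replicate 1 was the highest of the KO libraries at 16 h for all 5 genes. Of 15 MHC class I genes 5 responded less in KO, and the T cell costimulator Cd86 reached 70.7, 53.4 and 70.1 CPM in WT against 31.7, 23.2 and 27.7 CPM (-1.79 ± 0.18). Of the 336 genes with a smaller KO response, 200 have 1 listed start, and the interferon-response motif lay before 39 of these (19.5%). Of the genes with a larger KO response, 126 have 1 listed start, and the motif lay before 6 of these (4.76%). The share was 6.62% over all tested genes and 10.1% among genes that rose in KO cells. The 336 include the 27 listed interferon-stimulated genes, from a list with a share of 59.4%.

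Among restraining and effector genes, Il1rn reached 3924, 3408 and 3659 CPM in WT and 2419.7, 1587 and 1535 CPM in KO from 23.4, 17.1 and 23.2 and 30.6, 30.7 and 37.5 CPM untreated, a KO response of -1.63 ± 0.22 log2 relative to WT (adjusted p = 0.000642). Il10 reached 22.9, 18.1 and 20.0 CPM in WT against 10.3, 7.48 and 6.38 CPM in KO (-1.30 ± 0.23). Nos2 reached 348, 342 and 399 against 222, 141 and 141 CPM (-1.26 ± 0.21) and Il1a 378, 276 and 322 against 222, 148 and 136 CPM (-1.05 ± 0.26). In each case the 3 KO libraries were under the 3 WT libraries at 16 h. By list, 3 of 29 restraining genes and 3 of 18 cytokine genes responded less in KO. Of 15 nitric oxide, arginine and itaconate genes 1 did, as did 2.79% of all genes tested. No member of these lists responded more. The list medians were -0.21, -0.57 and 0.01, against 0.11 over all genes. For Il1b the difference between responses was -0.18 ± 0.34 (adjusted p = 0.793), with 1928, 1856 and 1894 CPM in WT and 2347, 2383 and 2598 CPM in KO at 16 h. Il6 (-0.68 ± 0.32), Tnf (-0.31 ± 0.31) and Lcn2 (-0.56 ± 0.41) did not pass either. Lipg reached 87.3, 71.8 and 91.2 CPM in WT and 20.0, 6.96 and 4.53 CPM in KO (-3.14 ± 0.46). Slc40a1 fell further in KO, to 12.6, 6.29 and 10.5 CPM against 18.5, 24.9 and 27.6 CPM in WT (-1.44 ± 0.31).

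Among the 200 genes with the opposite difference, the 119 that fell in both genotypes fell less in KO. Pclaf, a factor bound to the replication clamp PCNA, stood at 239, 289 and 256 CPM in untreated WT cells and 4.33, 2.97 and 4.07 CPM at 16 h, against 280.3, 294 and 169 and 14.9, 15.9 and 10.4 CPM in KO (1.73 ± 0.36 log2, adjusted p = 0.0125). Rrm2, a subunit of ribonucleotide reductase, ended at 5.04, 5.48 and 6.63 CPM in WT and 15.3, 17.8 and 10.4 CPM in KO (1.42 ± 0.31). Slc9a9, an endosomal sodium-proton exchanger, ended at 3.76, 4.62 and 4.14 CPM in WT and 10.5, 17.3 and 17.5 CPM in KO (1.38 ± 0.21). Each KO library at 16 h lay above every WT library, which the choice of genes by the widest differences favours. Of 50 cell cycle genes 9 responded this way and 1 the other way, of 24 cholesterol synthesis genes 6, and of 26 ribosomal protein genes 4. The cell cycle count was 1 or 2 without WT 0 h replicate 2 or 3, WT 16 h replicate 2 or 3, KO 0 h replicate 3 or KO 16 h replicate 2, 4 without WT 16 h replicate 1, and 15 without KO replicate 2 at every time. The ribosomal count ranged from 0 to 6 over single libraries left out. The phospholipid phosphatase gene Plpp5 moved in opposite directions, from 14, 14.3 and 12.5 to 7.88, 8.11 and 8.22 CPM in WT and from 13, 9.22 and 9.54 to 17.9, 23.1 and 18.5 CPM in KO (1.53 ± 0.20), and it was the 1 gene called up in KO and down in WT. Summed stromal markers at 16 h were 635.2 to 1165 CPM in WT and 1042 to 3306 CPM in KO, and their part in these differences was not tested.

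**Figure D4:**
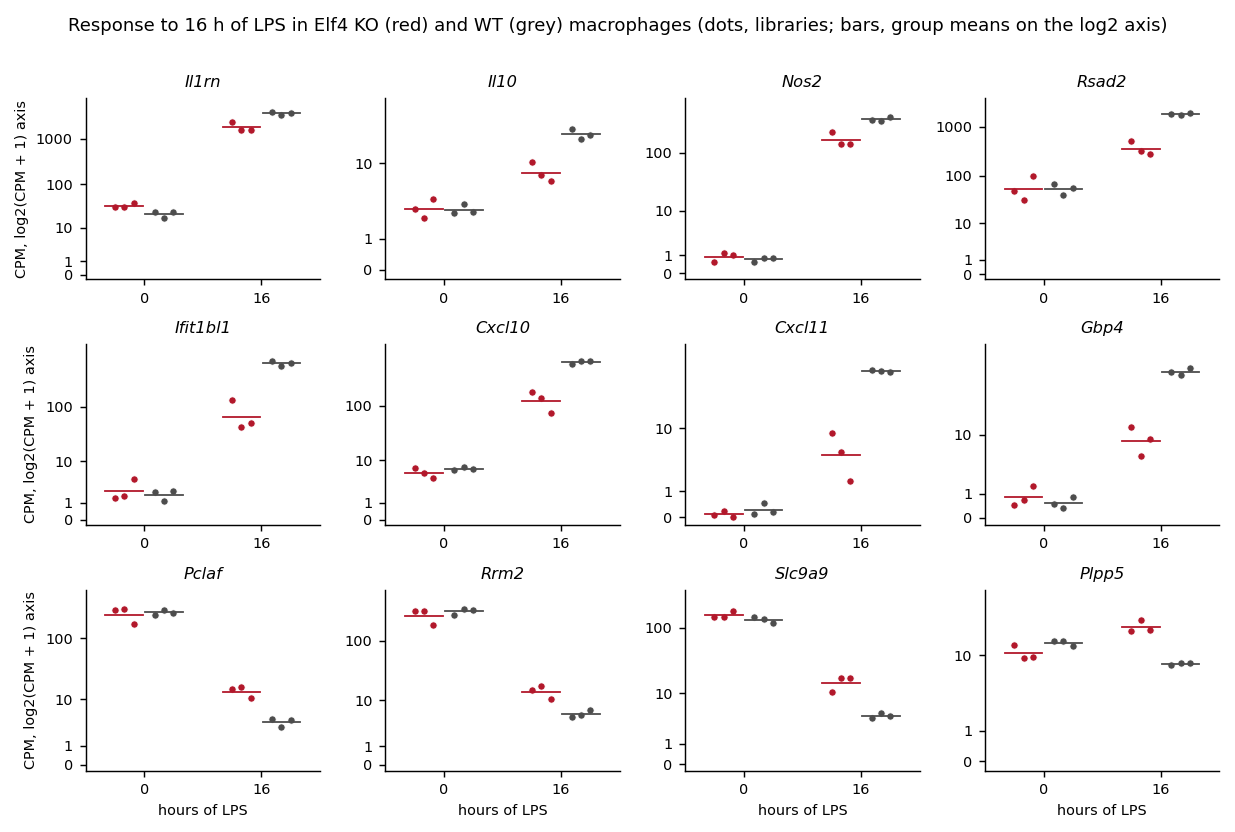
Expression of 12 genes at 0 and 16 h of LPS in KO (red) and WT (grey) macrophages, with CPM on a log2(CPM + 1) axis, 1 dot per library and a bar at the mean of the 3 on that axis. The first 8 panels show genes that reach a lower level in KO at 16 h, with Rsad2 at 1784, 1739 and 1883 CPM in WT. Pclaf, Rrm2, Slc9a9 and Plpp5 end higher in KO.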

How the data were processed

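Polyadenylated RNA of 18 macrophage libraries was sequenced. Per the labels, the deposited values are CPM computed by the authors, and the submitters' processing notes list mm10 as a build, beside Bowtie2, BWA, DESeq2, MACS2 and Partek (10.0.21.0411); none is given a role. The lowest entry, 0.0001, appears to stand for 0. The step between low values gave 11.5 to 16.8 M reads per library, but only 94.2 to 95.3% of values were whole reads, so no count test was run.

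The table of 14897 rows held 1 duplicate, kept once. A gene was fitted where 3 or more libraries reached 1 CPM, as log2(CPM + 1) with limma 3.58.1 in R 4.3.3 (lmFit, eBayes with trend), 1 mean per genotype and time over all 18 libraries, so spread is shared between times. Tests were two-sided, adjusted by Benjamini-Hochberg. A call needed an adjusted p under 0.05 with the deposited CPM and with median-ratio rescaled CPM. P-values measure the spread between these libraries. The fit was run on simulated data for KO 16 h against 0 h only, with a small share of genes changed, equally up and down. The simulation held no shift in the median of all genes, so it does not check the choice of scaling or the difference of responses. No other column of values was used.

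Named genes were key genes of the LPS response, the 15 widest differences each way (separate groups, mean not under 5 CPM), up to 4 called members each way and 2 not called per list, the 10 largest each way in the other comparisons, the 10 most abundant, and cell type markers. Numbered or unnamed gene models were not named, and a few genes are not reported here. Members and lists were chosen with earlier results of these data known. Promoters were RefSeq's, for 7669 of 12058 tested genes with 1 listed start. Alternatives changed the scaling, pseudocount, filter, libraries fitted and replicate block, and left out each library.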

Additional observations from a re-analysis of the deposited data

Results flagged for a closer look

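The results singled out are those in which the KO response to 16 h of LPS differed from the WT response by the test of the difference itself. They are 200 genes with a KO response over the WT response and 336 with one under it.

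Among the named genes with a smaller KO response, the interferon-stimulated genes differed by -3.36 (Ifit1bl1), -3.15 (Gbp4), -2.51 (Iigp1), -2.37 (Cmpk2), -2.35 (Rsad2), -2.10 (Ifit2) and -2.01 (Tgtp2) log2. The chemokine genes Cxcl11 and Cxcl10 differed by -3.12 and -2.03. The lipase gene Lipg differed by -3.14, the interleukin-1 receptor antagonist gene Il1rn by -1.63, Il10 by -1.30 and Nos2 by -1.26. The call on Ifit2 was lost without WT 0 h replicate 2 (-1.86), WT 16 h replicate 1 (-2.06) or KO 16 h replicate 2 (-1.93).

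With a KO response over that of WT, Pclaf differed by 1.73, Plpp5 by 1.53, Rrm2 by 1.42 and the endosomal exchanger gene Slc9a9 by 1.38. The cell cycle genes Ccna2 (1.44), Bub1 (1.44), Top2a (1.43), Cdca3 (1.35) and Anln (1.30) were called as well, but each lost its call when any of WT 0 h replicate 2 or 3, WT 16 h replicate 2, KO 0 h replicate 3 or KO 16 h replicate 2 was left out, with differences that stayed above 1 log2.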

How the results depend on the processing

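With the deposited CPM alone, 6044 genes fell between 0 and 16 h, 6719 rose between 4 and 16 h and 437 had a KO response over that of WT. With median-ratio rescaled CPM alone, 3598 rose between 0 and 16 h and 4103 fell between 4 and 16 h, and with TMM-rescaled CPM alone 3632 and 3968. Leaving out 1 library gave 1968 to 2152 up and 3416 to 3630 down for 16 h against 0 h, 3915 to 4148 up and 2178 to 2349 down for 16 h against 4 h, and 54 to 323 over and 164 to 443 under for the difference of responses. Apart from the replicate block described next, other counts of calls stayed within 1.5 times, among them 1844 up and 3333 down with only the 6 libraries fitted. Of the named genes, 4 changed sign, being called only after rescaling: Atp5b (0.24 by median ratio, 0.25 by TMM), Ireb2 (0.21, 0.22), Pfkp (0.30, 0.31) and Stat6 (0.32, 0.33). Lysosome genes called lower went from 10 to 18, and citric acid cycle and respiratory chain genes from 5 to 15, with the deposited CPM alone. A call that needs only 1 of the scalings is by construction made more often; other causes were not tested. The count tests planned on whole reads, edgeR and DESeq2, were not run because the CPM did not give whole reads. The choice to leave out KO replicate 2 at every time was made after seeing the data.

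The labels do not say what a replicate number marks, and same-numbered libraries deviated together, in some pairs only weakly. In KO cells the correlations for numbers 1, 2 and 3 were 0.06, 0.52 and 0.33 between 0 and 16 h, 0.19, 0.53 and 0.53 between 0 and 4 h, and 0.08, 0.40 and 0.31 between 4 and 16 h. In WT cells all 9 lay between 0.11 and 0.31, and each WT library correlated best with its own number. KO 16 h replicate 1 correlated best with replicate 3 at 0 h (0.10) and at 4 h (0.10). Since some pairs stayed under 0.1, the numbers were not taken to pair the libraries. Yet every same-number correlation was positive. Summed stromal markers and summed MHC class II genes also kept the same order of replicates at 0, 4 and 16 h within each genotype. The libraries may thus be paired by number, and the counts of 200 and 336 come from a fit that ignores such pairing. A replicate block gave 2310 up and 3960 down for 16 h against 0 h, 4496 and 2529 for 16 h against 4 h, and 577 over and 583 under for the difference of responses, near parity where the fit without the block gave 200 and 336. All of the 200 and the 336 were among them.

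Depth limits genes near 0, such as Ifnb1 and Ccl17, where a few reads set the value.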
